A study of Mus musculus with 24 samples.

Results

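Foxo1, Foxo3 and Foxo4 encode FoxO transcription factors, and Trim63, Fbxo32, Fbxo30, Fbxo21 and Fbxo31 encode ubiquitin ligases studied in muscle atrophy. The 8 genes were taken by their symbols from the 24537 genes of the count table, in all 24 libraries. Each gene had 1 copy in the annotation and no other gene of the table overlapped it. The lowest count of any of them in a library was 299, and 8 of 8 passed the filter on low counts.

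FoxO factors are held in the cytoplasm when Akt, activated by insulin or IGF1, phosphorylates them. When Akt activity falls they enter the nucleus and switch on genes for protein breakdown, including Trim63 (MuRF1) and Fbxo32 (MAFbx or atrogin), the ligases most often measured in wasting muscle. MuRF1 is a RING-type ligase that ubiquitinates thick-filament proteins. The F-box proteins act inside SCF complexes, in which Skp1, Cul1 and Rbx1 form the core and the F-box protein selects the substrate. Fbxo30 (MUSA1) and Fbxo21 (SMART) are further F-box ligases of the FoxO program, and Fbxo31 is best known for the turnover of cyclin D1. FoxO activity is set mainly by phosphorylation and localization, which RNA levels do not show.

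The study asked how the reprogramming factors Oct4, Sox2, Klf4 and c-Myc (OSKM), expressed in myofibers, change muscle. All mice were 2 months old, carried 1 allele each of a Dox-inducible OSKM cassette (Col1a1-tetO-4F) and of a Cre-dependent rtTA transactivator (ROSA26-LSL-rtTA), and drank water with 1 mg/ml Dox. Acta1-Cre+/4Fhet mice (Cre+) also carried Cre under the skeletal actin promoter Acta1, so that the cassette could be switched on in myofibers, whereas the controls were Acta1-Cre-/4Fhet mice without Cre (Cre-). RNA came from whole extensor digitorum longus (EDL, mainly fast-twitch) and soleus (SOL, mainly slow-twitch) muscles taken 2.5 days, 5.5 days and 8.5 days into Dox treatment, with 2 libraries in each of the 12 groups. The study as a whole used mice of both sexes, and the sex behind each library is not given. The study left out samples without OSKM overexpression and described 2.5 and 8.5 days. The controls received Dox as well, so Dox itself is shared by every group. In whole muscle, fewer cells of a type and less RNA per cell cannot be told apart.

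Total counts ranged from 36088781 to 54679082 per library. Pou5f1, which encodes Oct4, and Sox2 were called higher in Cre+ muscles in EDL at 2.5, 5.5 and 8.5 days. In SOL they were called higher at 2.5 and 8.5 days, whereas at 5.5 days no gene was called. With a library left out, Pou5f1 in EDL was higher in Cre+ by 8.38 to 10.9 on the log2 scale at 2.5 days. At 8.5 days the range was 9.31 to 9.87. Klf4 ranged from 1.30 to 2.50 and from 1.49 to 2.40 on these days. For Myc the ranges were 2.90 to 4.77 and 4.42 to 4.93. A call at 5.5 days does not show a rise of that size. Summed over 8 fast-fibre markers the level ranged from 48931 to 87195 FPKM in EDL and from 20540 to 35745 FPKM in SOL. Summed over 6 slow-fibre markers it ranged from 149 to 1465 FPKM in EDL and from 29655 to 47951 FPKM in SOL. Every EDL library was above every SOL library for the fast markers and below it for the slow markers. No marker list had a gene at 0 in every library of a group, apart from the neutrophil list, in which 1 marker was at 0 in Cre+ EDL and 1 in Cre- SOL of 2.5 days. The liver transcripts summed to 18.6 and 98.7 FPKM in the Cre- SOL libraries of 8.5 days and to at most 2.64 FPKM in every other SOL library.

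Levels are given as TMM-scaled FPKM, which is the count per kilobase of exon divided by the TMM-scaled library size, in the usual FPKM units. Differential expression was tested with edgeR's quasi-likelihood test and Benjamini-Hochberg adjustment over all genes tested. A gene was called higher or lower at an adjusted p under 0.05 with an absolute log2 fold change over 0.5, and intervals are 95% intervals of the fit. The study calls the libraries of a group independent biological samples, and the labels name no mice.

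In control EDL muscles of 2.5 and 8.5 days, Trim63 was the most abundant of the 8 genes, at 148 ± 22.5 TMM-scaled FPKM (SD, n = 4). Foxo4 followed at 97.3 ± 13.1 and was by far the most abundant FoxO factor. Fbxo31 stood at 40.5 ± 4.35 and Fbxo32 at 29.8 ± 13.7, and the libraries of these neighbours overlapped. The other 4 genes lay close together, with Foxo1 at 4.60 ± 0.997, Fbxo30 at 3.74 ± 1.02, Foxo3 at 3.71 ± 0.542 and Fbxo21 at 3.62 ± 0.622 TMM-scaled FPKM. No neighbours among these 4 could be ordered, because their libraries overlapped.

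In control SOL muscles Trim63 was again first, at 157 ± 26.1 TMM-scaled FPKM (SD, n = 4). Foxo4 at 59.3 ± 4.72, Fbxo32 at 50.1 ± 4.02 and Fbxo31 at 40.2 ± 7.19 formed a middle group whose neighbours overlapped. Fbxo21 at 7.20 ± 0.853, Foxo1 at 6.03 ± 0.637, Fbxo30 at 4.37 ± 1.03 and Foxo3 at 3.73 ± 0.845 were lowest, and each of these overlapped its neighbour too. In both muscles a gap separated the 4 abundant genes (Trim63, Foxo4, Fbxo32 and Fbxo31) from the 4 scarce ones. The plot of levels by library shows the same gap at every time point.

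**Figure D1:**
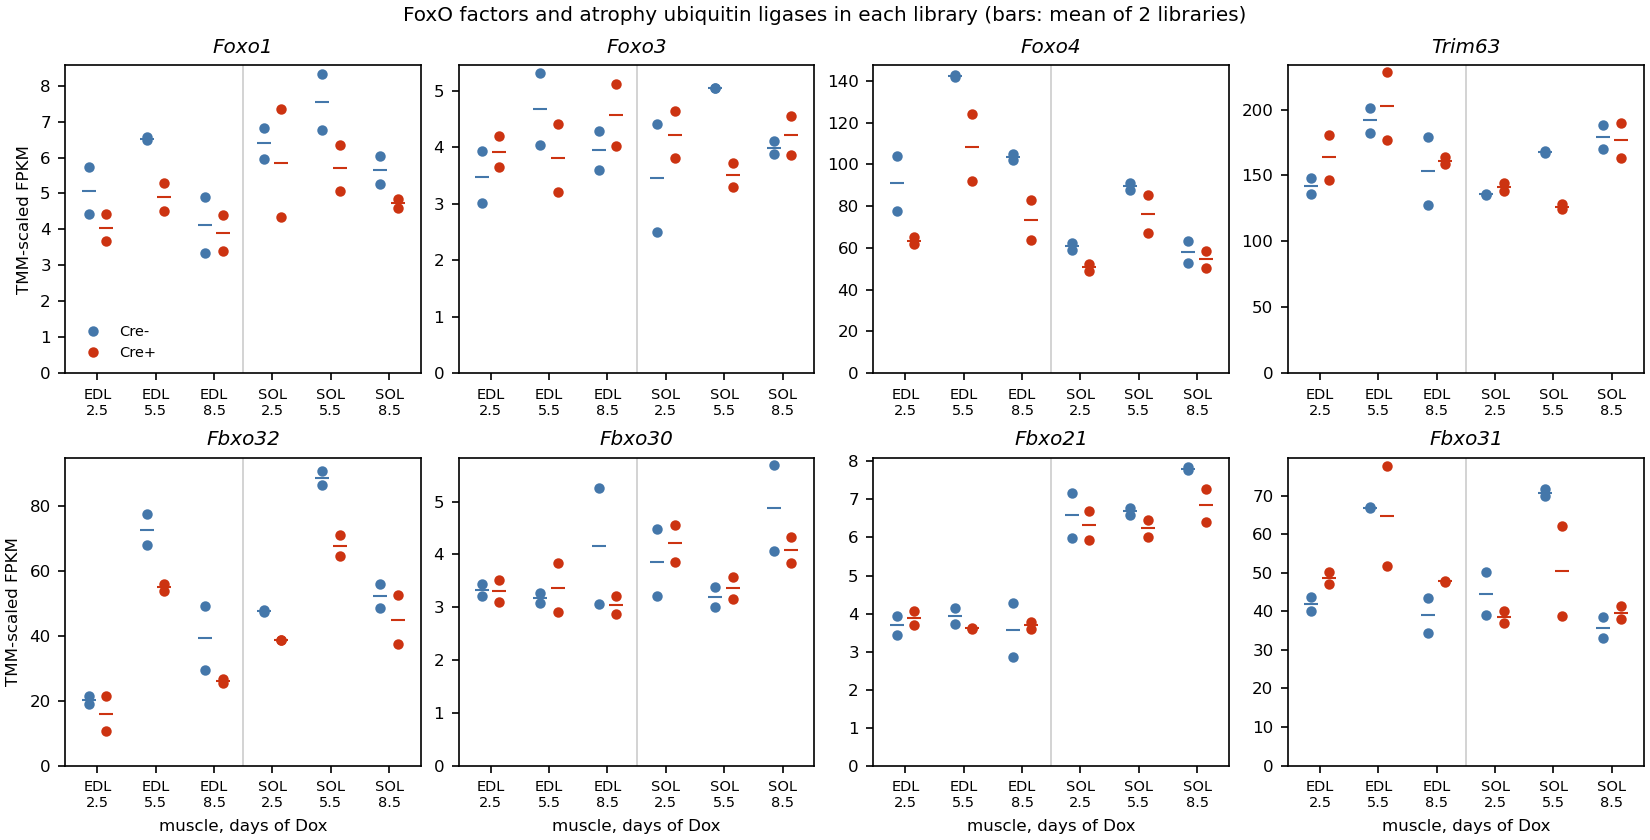
Level of each of the 8 genes in TMM-scaled FPKM (vertical axis, linear from 0) for each muscle and day of Dox (horizontal axis), with 1 point per library, blue for Cre- and red for Cre+, and a bar at the mean of 2 libraries. Fbxo21 lay higher in every SOL library (5.93 to 7.85) than in any EDL library (2.85 to 4.28), and Foxo4 and Fbxo32 were high at 5.5 days.

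Trim63 lies on chromosome 4 at 134315120-134329629 in GRCm38. Among the 6 of the 8 genes with a promoter in the RefSeq table, it is shown because it alone held the FoxO-family binding element in the 250 bases before its start. The element searched was GTAAACA, or TGTTTAC when read on the opposite strand, and it was present in 3.17% of 32851 promoters of this length. The sequence from RefSeq (GRCm38.p6, chr4:134314870-134315119, plus strand, 5′ to 3′) has the element in capitals, 188 to 194 bases before the start.
Trim63: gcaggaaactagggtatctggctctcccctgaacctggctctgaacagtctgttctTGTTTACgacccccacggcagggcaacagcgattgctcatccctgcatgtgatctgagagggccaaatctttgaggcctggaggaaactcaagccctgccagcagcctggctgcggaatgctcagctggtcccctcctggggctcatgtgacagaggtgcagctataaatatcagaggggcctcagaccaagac

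The match is a description of the letters, not a measured binding site. A further FoxO form CAAAACA, the MITF and TFE E-box CACGTG and the Oct4 octamer ATGCAAAT, searched on both strands, occurred in 5.56%, 6.02% and 1.60% of the promoters and in 0 of the 6. Foxo4 and Fbxo32 were not matched in the table. The 4 motifs were letter strings that do not contain each other.

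The first question was whether OSKM in myofibers changed the FoxO factors in EDL muscles. After 2.5 days Foxo4, which encodes the X-linked family member, stood at 61.9 and 65.1 TMM-scaled FPKM in the Cre+ libraries and at 104 and 77.7 in the Cre- libraries. Both Cre+ libraries lay below both controls, but by total count alone the groups overlapped. Foxo4 fell by 0.53 on the log2 scale (SE 0.165, 95% interval -0.88 to -0.17), a 1.44-fold lower level with an adjusted p of 0.0311 by edgeR. Of the 8 genes 1 was called lower and 0 higher, against 24% of all genes tested called in either direction. The Foxo4 call was lost without Cre+ replicate 1 (-0.50, adjusted p = 0.0992), without Cre+ replicate 2 (-0.55, adjusted p = 0.117) and without Cre- replicate 1 (-0.30, adjusted p = 0.297), all by edgeR.

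After 8.5 days the 2 Cre+ EDL libraries held Foxo4 at 63.8 and 82.8 TMM-scaled FPKM and the 2 Cre- libraries at 102 and 105. The groups were again apart. The log2 difference was -0.48 (95% interval -0.83 to -0.12), and it missed the threshold at an adjusted p of 0.0697 by edgeR. Without Cre+ replicate 2, the higher of the Cre+ libraries, it passed (-0.68, adjusted p = 0.0414 by edgeR). None of the 8 genes was called at 8.5 days by edgeR or by DESeq2 on the same libraries, against 14.1% of all genes. Of the 8 genes 1 (Foxo4) had an unadjusted p under 0.05, as did 4588 of all 15372 genes tested.

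Foxo1, which controls fuel use and fibre size in muscle, and Foxo3, the factor most often tied to atrophy, were not called in EDL. At 2.5 days Foxo1 stood at 3.69 and 4.42 TMM-scaled FPKM in Cre+ and at 5.73 and 4.42 in Cre- libraries. Its log2 differences were -0.33 (95% interval -0.86 to 0.19) at 2.5 days and -0.06 (-0.59 to 0.47) at 8.5 days. Foxo3 stood at 3.66 and 4.19 in Cre+ and at 3.94 and 3.02 in Cre- libraries of 2.5 days. The groups overlapped, although by total count alone Foxo3 was higher in both Cre+ libraries than in both controls. Its log2 differences were 0.17 (-0.35 to 0.69) and 0.23 (-0.29 to 0.75). These intervals are wide, and the absence of a call does not show that the 2 genes were unchanged.

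**Figure D2:**
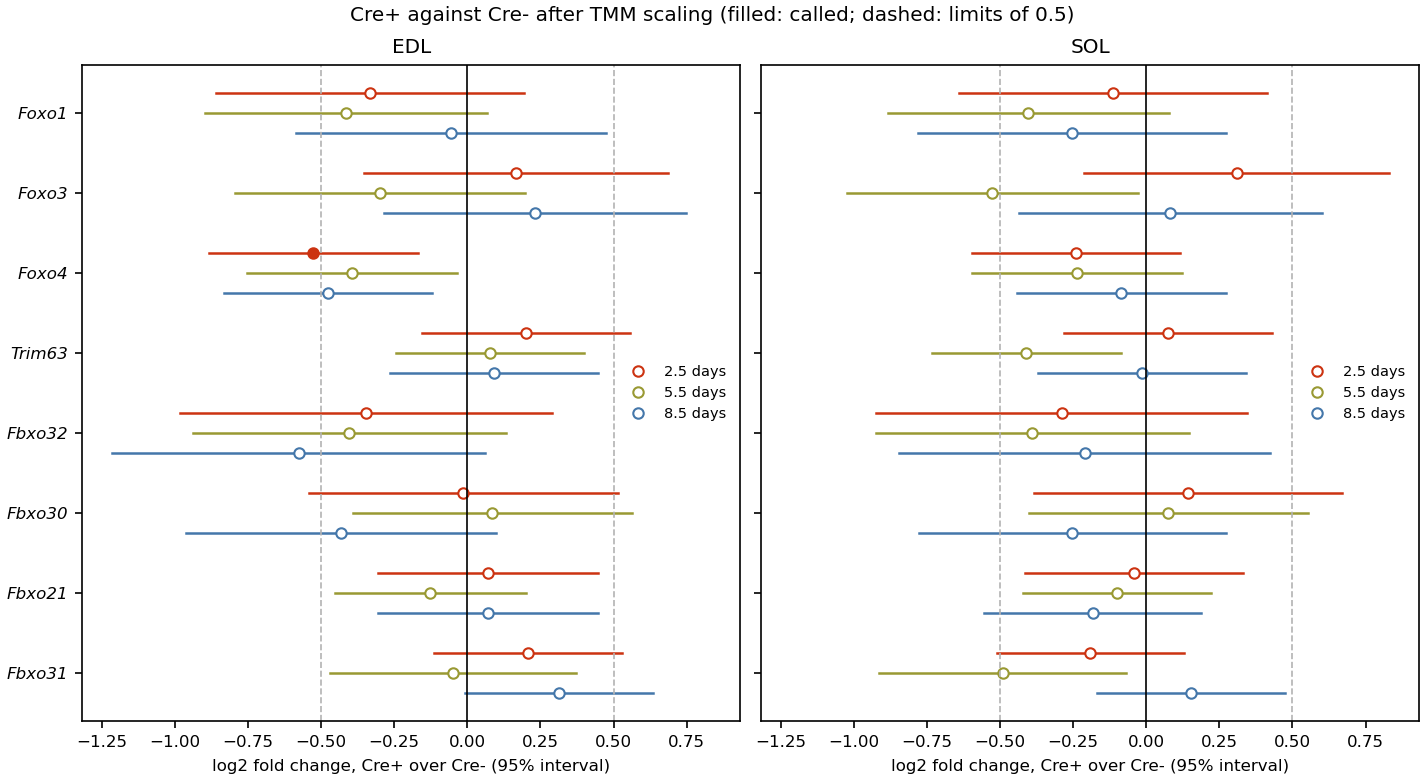
Log2 fold change of Cre+ over Cre- (horizontal axis) for the 8 genes (vertical axis) in EDL and SOL at 2.5, 5.5 and 8.5 days, after TMM scaling, with the 95% interval of the edgeR fit as a line and a filled point where the gene was called. Foxo4 in EDL at 2.5 days (-0.53) was the only filled point, and with library size alone that call was lost (-0.20).

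Trim63 was not called in EDL. At 2.5 days it stood at 181 and 147 TMM-scaled FPKM in Cre+ libraries and at 148 and 136 in Cre- libraries, and at 8.5 days at 159 and 164 against 179 and 128. The groups overlapped on both days, but by total count alone both Cre+ libraries lay above both controls on each day. The log2 differences were 0.20 (95% interval -0.15 to 0.56) and 0.09 (-0.26 to 0.45). Relative to the 0.5 limit, a fall of that size lies outside both intervals.

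Fbxo32 varied widely between replicates in EDL. Its Cre+ EDL libraries of 2.5 days held 21.4 and 10.5 TMM-scaled FPKM and its Cre- libraries 21.6 and 18.9. The groups overlapped, and the log2 difference was -0.35 (95% interval -0.98 to 0.29). Without Cre+ replicate 1 it was called lower (-0.96, adjusted p = 0.0243 by edgeR), and without Cre+ replicate 2 the sign turned (0.084). At 8.5 days the Cre+ libraries held 26.7 and 25.4 and the Cre- libraries 49.3 and 29.5. These groups were apart, but by total count alone they overlapped. The difference of -0.58 (-1.21 to 0.06) had an adjusted p of 0.213 by edgeR and was -0.15 without Cre- replicate 1, the highest library. The slow-fibre markers of that library summed to 1465 FPKM, against 296 FPKM in Cre- replicate 2, and its neutrophil markers to 6.41 against 1.47 FPKM. It also had the lowest total count of all libraries, 36088781. The part of these features was not tested.

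For Fbxo31 the Cre+ replicates were close together in EDL at 2.5 and 8.5 days. At 2.5 days it stood at 47.2 and 50.1 TMM-scaled FPKM in Cre+ EDL and at 43.8 and 40.1 in Cre- EDL, and at 8.5 days at 47.6 and 47.9 against 34.5 and 43.6. Both Cre+ libraries were above both controls on each day. The log2 differences of 0.21 (95% interval -0.11 to 0.53) and 0.31 (-0.01 to 0.63, adjusted p = 0.177 by edgeR) did not pass the test.

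Fbxo30 and Fbxo21, both scarce, were not called in EDL either. Fbxo30 differed by -0.01 (95% interval -0.54 to 0.51) at 2.5 days and by -0.43 (-0.96 to 0.10) at 8.5 days on the log2 scale. At 8.5 days its Cre- libraries were far apart, at 5.26 and 3.06 TMM-scaled FPKM, and its Cre+ libraries stood at 2.86 and 3.21. Without Cre- replicate 2 it was called lower (-0.78, adjusted p = 0.0365 by edgeR), and without Cre- replicate 1 the difference was 0.02. Cre- replicate 1 of 8.5 days is the library with the slow-fibre sum of 1465 FPKM and the lowest total count, and the part of these was not tested. Fbxo21 differed by 0.07 on both days, with intervals of -0.30 to 0.45 and -0.31 to 0.45.

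The scale mattered for these comparisons. Under library size alone, without TMM factors, over all genes tested in EDL, the median log2 fold change rose to 0.28 at 2.5 days and 0.16 at 8.5 days, a shift of 0.329 and 0.180 from TMM. Foxo4 at 2.5 days was then -0.20 (adjusted p = 0.359 by edgeR), and Trim63 at 0.53 (adjusted p = 0.0254) and Fbxo31 at 0.54 (adjusted p = 0.0118) were called higher. Relative to the median of all genes under that scaling, the differences were -0.48 for Foxo4, 0.24 for Trim63 and 0.26 for Fbxo31, close to their TMM values. A change of scaling shifts all genes nearly alike, so this closeness was fixed in advance and is no test of the TMM values. Of all calls in EDL at 2.5 days, 42.5% were lower with TMM and 12.7% with library size alone, and at 8.5 days 46.0% and 21.7%.

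The EDL libraries also differed in other ways. The summed fast-fibre markers stood at 62700 and 48931 FPKM in Cre+ EDL of 2.5 days and at 78082 and 87195 FPKM in Cre-, and 4 of 8 of these markers were called lower, against 2 of 8 at 8.5 days. Of 5 endothelial markers 3 were called lower at 2.5 days and 0 at 8.5 days, and of 5 liver transcripts 0 and 3. No gene of the slow-fibre, satellite cell, macrophage, neutrophil, fibroblast, adipocyte or Schwann cell lists was called on either day in EDL. The part of these markers in the Foxo4 result was not tested.

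In SOL muscles none of the 8 genes was called at 2.5 or 8.5 days by edgeR or DESeq2, and none had an unadjusted p under 0.05. Few genes of the table were called there either, with 0.384% at 2.5 days, 0.631% at 8.5 days and 1.47% for the mean of both days. Of all 15372 genes tested, 2053 at 2.5 days and 1015 at 8.5 days had an unadjusted p under 0.05. Foxo4 stood at 49.1 and 52.5 TMM-scaled FPKM in Cre+ and at 62.3 and 59.1 in Cre- libraries of 2.5 days, and at 50.2 and 58.6 against 63.1 and 52.7 at 8.5 days. The groups were apart at 2.5 days and overlapped at 8.5 days. Over both days, the SOL difference of Foxo4 was -0.16 (95% interval -0.41 to 0.09), that of Fbxo32 -0.25 (-0.70 to 0.20) and that of Foxo3 0.20 (-0.17 to 0.56).

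Other SOL values did not pass the test. Fbxo32 stood at 38.7 in both Cre+ libraries of 2.5 days and at 47.6 and 48.2 in the controls, a log2 difference of -0.29 (95% interval -0.92 to 0.35). These groups were apart and their replicates close, while the interval comes from the spread that the fit estimated over all groups. Foxo3 differed by 0.31 (-0.21 to 0.83) at 2.5 days. At 8.5 days Foxo1 differed by -0.25 (-0.78 to 0.27) and Fbxo31 by 0.15 (-0.17 to 0.47).

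Whether the changes differed between the muscles was tested as an interaction, and 0 of 8 genes passed at either day, with 4.25% of all genes called at 2.5 days and 0.592% at 8.5 days. None of the 8 had an unadjusted p under 0.05, and DESeq2 called 0. Of all 15372 genes tested, 3221 at 2.5 days and 1729 at 8.5 days had an unadjusted p under 0.05. The Foxo4 change in EDL minus that in SOL was -0.29 (95% interval -0.79 to 0.22) at 2.5 days and -0.39 (-0.90 to 0.11) at 8.5 days. For Fbxo31 it was 0.40 (-0.05 to 0.85) at 2.5 days. The call of Foxo4 in EDL and its absence in SOL are therefore not shown to differ.

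The change in EDL at 8.5 days minus that at 2.5 days gave 0 of 8 genes by edgeR and DESeq2, and 0% of all genes were called by edgeR. Among all genes 1469 had an unadjusted p under 0.05 and DESeq2 called 144, and none of the 8 was among either. The Foxo4 difference of the changes was 0.05 (95% interval -0.45 to 0.55), and that of Fbxo30 was -0.42 (-1.17 to 0.33).

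At 5.5 days, the time point that the study left out, 0 of 8 genes were called in EDL or in SOL by edgeR and by DESeq2. The share of all genes called was 0.304% in EDL and 0% in SOL, where 597 genes had an unadjusted p under 0.05 and DESeq2 called 0. Foxo4 in EDL stood at 92.2 and 124 TMM-scaled FPKM in Cre+ and at 142 and 143 in Cre- libraries. Both Cre+ libraries were lower, with a log2 difference of -0.40 (95% interval -0.75 to -0.04, adjusted p = 0.515 by edgeR). The unadjusted p of Foxo4 was 0.0328, and the difference was -0.19 without Cre+ replicate 1 and -0.63 without Cre+ replicate 2.

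In SOL at 5.5 days Trim63 stood at 128 and 124 TMM-scaled FPKM in Cre+ and at 167 and 168 in Cre- libraries, 2 tight pairs that did not overlap. Its log2 difference was -0.41 (95% interval -0.73 to -0.09), with an unadjusted p of 0.0159 and an adjusted p of 1 by edgeR. Foxo3 at -0.53 (-1.02 to -0.03) and Fbxo31 at -0.49 (-0.91 to -0.07) were the others with an unadjusted p under 0.05. Without Cre+ replicate 1 the Fbxo31 difference was -0.19, and without Cre+ replicate 2 it was -0.87. For Fbxo31 the Cre+ libraries were 38.7 and 62.0 and the Cre- libraries 71.6 and 70.0. No OSKM gene was called in this comparison.

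The change in EDL at 2.5 days was also set against that at 5.5 days, and 0 of 8 genes passed, with 5.83% of all genes called. The same test of 8.5 against 5.5 days gave 0 of 8, with 0.246% of all genes called. None of the 8 had an unadjusted p under 0.05 in these tests and DESeq2 called 0. Of all 15478 genes tested, 3413 in the test of 2.5 days and 1695 in that of 8.5 days had an unadjusted p under 0.05. The difference farthest from 0 in the test of 2.5 days was that of Foxo3, 0.47 (95% interval -0.23 to 1.17), and in the test of 8.5 days that of Fbxo30, -0.54 (-1.21 to 0.14), with Foxo3 at 0.51 (-0.19 to 1.21).

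The muscles themselves differed in 3 of the 8 genes. In Cre- mice, over 2.5 and 8.5 days, Foxo4 was called higher in EDL, and Fbxo32 and Fbxo21 were called lower, against 21.9% of all genes called in either direction. In Cre+ mice 2 of 8 were called, Fbxo32 and Fbxo21, again lower in EDL, against 29.6% of all genes. These shares, 3 of 8 and 2 of 8, lie near those of all genes. The EDL and SOL libraries of a number deviated together, although the labels do not say that they came from 1 mouse, and a fit with that number as a block gave the same counts. Markers of other cells differed between the muscles too. In Cre- mice 4 of 4 satellite cell, 5 of 5 adipocyte and 1 of 5 endothelial markers were called lower in EDL, and 2 of 5 fibroblast, 2 of 4 Schwann cell and 1 of 6 macrophage markers higher. In Cre+ mice 3 of 4 satellite cell, 4 of 5 adipocyte and 4 of 5 endothelial markers were lower, and 1 of 5 fibroblast and 1 of 4 Schwann cell markers higher. Their part in the differences of the 8 genes was not tested.

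Fbxo21 showed the clearest separation. The 4 Cre- EDL libraries held 3.44, 3.93, 2.85 and 4.28 TMM-scaled FPKM and the 4 Cre- SOL libraries 7.18, 6.0, 7.85 and 7.77. The groups did not overlap, and EDL was lower by a log2 difference of -0.96 (SE 0.124, 95% interval -1.23 to -0.70, adjusted p = 7.34e-05 by edgeR), a 1.95-fold lower level. In Cre+ mice EDL held 3.70, 4.08, 3.78 and 3.60 and SOL 5.93, 6.71, 7.28 and 6.40, with a log2 difference of -0.78 (SE 0.122, adjusted p = 0.000271 by edgeR). The call held with each library left out.

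Foxo4 in Cre- mice stood at 104, 77.7, 102 and 105 TMM-scaled FPKM in EDL and at 62.3, 59.1, 63.1 and 52.7 in SOL. The lowest EDL library was above the highest SOL library. The log2 difference was 0.73 (SE 0.117, 95% interval 0.48 to 0.99, adjusted p = 0.000409 by edgeR), 1.66-fold higher in EDL. In Cre+ mice EDL held 61.9, 65.1, 63.8 and 82.8 and SOL 49.1, 52.5, 50.2 and 58.6. The difference there was 0.39 (0.14 to 0.65, adjusted p = 0.0158 by edgeR), under the limit of 0.5 and so not called. The interactions given above were tested for each day separately and did not pass, and none was tested over both days. The muscle difference is therefore not shown to depend on Cre.

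Fbxo32 was lower in EDL in both genotypes. Its Cre- libraries held 21.6, 18.9, 49.3 and 29.5 TMM-scaled FPKM in EDL and 47.6, 48.2, 48.6 and 56.1 in SOL, so 1 EDL library of 8.5 days reached the SOL range. The log2 difference was -0.80 (SE 0.208, 95% interval -1.25 to -0.35, adjusted p = 0.0104 by edgeR), 1.74-fold lower. In Cre+ mice EDL held 21.4, 10.5, 26.7 and 25.4 and SOL 38.7, 38.7, 52.6 and 37.4, with no overlap. The difference was -1.01 (SE 0.209, -1.47 to -0.56, adjusted p = 0.00188 by edgeR), 2.02-fold lower.

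**Figure D3:**
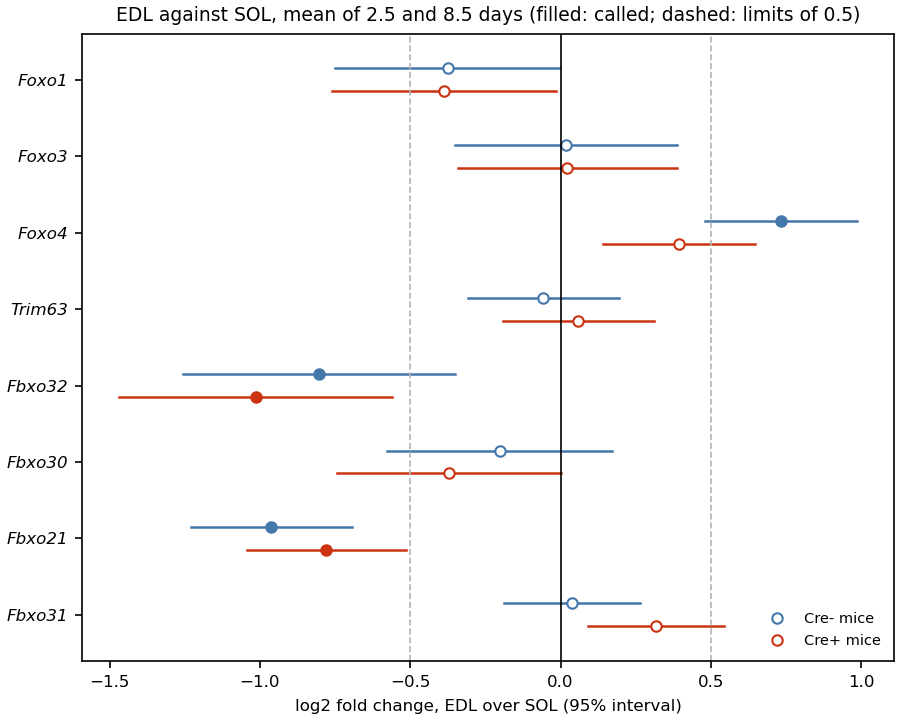
Log2 fold change of EDL over SOL (horizontal axis) for the 8 genes (vertical axis) over 2.5 and 8.5 days in Cre- (blue) and Cre+ (red) mice, with 95% intervals and a filled point where called. Fbxo32 (-0.80 and -1.01) and Fbxo21 (-0.96 and -0.78) were filled in both genotypes and Foxo4 (0.73) in Cre- mice, while the points of Foxo3 and Fbxo31 in Cre- mice lay near 0 and changed sign with library size alone (-0.071 and -0.051).

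The other genes did not pass between the muscles. Trim63 differed by -0.06 (95% interval -0.31 to 0.19) in Cre- and by 0.06 (-0.19 to 0.31) in Cre+ mice, and Foxo3 by 0.02 in each (-0.35 to 0.39 and -0.34 to 0.39). For Trim63 a difference of 0.5 lies outside the intervals. Foxo1 was -0.38 in Cre- (adjusted p = 0.118) and -0.39 in Cre+ mice (adjusted p = 0.0881), by edgeR. It was called lower in EDL without EDL Cre- 8.5 days replicate 2 (-0.52, adjusted p = 0.0474) and, in Cre+ mice, without SOL Cre+ 2.5 days replicate 1 (-0.55, adjusted p = 0.0168). Fbxo30 was -0.20 and -0.37, and Fbxo31 was 0.04 in Cre- and 0.32 in Cre+ mice (adjusted p = 0.0264 by edgeR), under the fold limit.

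Time on Dox was compared in the controls. In Cre- EDL 0 of 8 genes were called between 8.5 and 2.5 days by edgeR, against 0.748% of all genes. Of the 8 genes 1, Fbxo32, had an unadjusted p under 0.05, as did 1859 of all 15372 genes tested. Fbxo32 stood at 21.6 and 18.9 TMM-scaled FPKM at 2.5 days and at 49.3 and 29.5 at 8.5 days, a log2 difference of 0.95 (95% interval 0.31 to 1.59, adjusted p = 0.189 by edgeR). DESeq2 on the same libraries called it higher, at 0.96 with an adjusted p of 0.0401. With a library left out, edgeR called it in 0 of 4 settings, and it was 0.53 without replicate 1 of 8.5 days, the higher library of that day. That library also had the highest slow-fibre sum in EDL, 1465 FPKM, and the lowest total count, and the part of these in the value was not tested. In Cre- SOL 0 of 8 were called by either tool, against 3.63% of all genes. Of the 8 genes Trim63 alone had an unadjusted p under 0.05 (0.41, 0.05 to 0.76), as did 2970 of all genes tested. In that comparison 5 of 5 liver transcripts, 1 of 6 macrophage, 1 of 4 neutrophil and 1 of 5 fibroblast markers were called higher, and their part in the Trim63 value was not tested.

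The libraries of 5.5 days stood apart in several of the genes, in both genotypes. Fbxo32 ranged from 54.1 to 91.0 TMM-scaled FPKM over the 8 libraries of 5.5 days (median 69.6) and from 10.5 to 56.1 over the 16 others (median 38.1). Foxo4 in EDL ranged from 92.2 to 143 at 5.5 days and from 61.9 to 105 otherwise, and in SOL from 66.9 to 91.2 and from 49.1 to 63.1. Fbxo31 in EDL ranged from 51.8 to 77.6 and from 34.5 to 50.1. Fbxo21 showed no such shift. It ranged from 3.59 to 4.14 against 2.85 to 4.28 in EDL, and from 6.02 to 6.77 against 5.93 to 7.85 in SOL. Foxo3 overlapped in EDL, with 3.21 to 5.31 at 5.5 days and 3.02 to 5.12 otherwise. In SOL the Cre- libraries of 5.5 days held Foxo3 at 5.06 and 5.05, above the other Cre- libraries (2.50 to 4.41). The Cre+ libraries of 5.5 days held it at 3.73 and 3.30, below the other Cre+ libraries (3.81 to 4.64). Fbxo31 in SOL overlapped, with 38.7 to 71.6 at 5.5 days and 33.1 to 50.2 otherwise. Summed over 5 fibroblast markers the level was lower at 5.5 days, from 329 to 723 FPKM in EDL against 796 to 1695 otherwise, and from 300.2 to 469 FPKM in SOL against 452 to 1201. Their part in the shift was not tested. No test of day was planned for these libraries, and their day of Dox cannot be told apart from any other difference in how that set was collected.

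**Figure D4:**
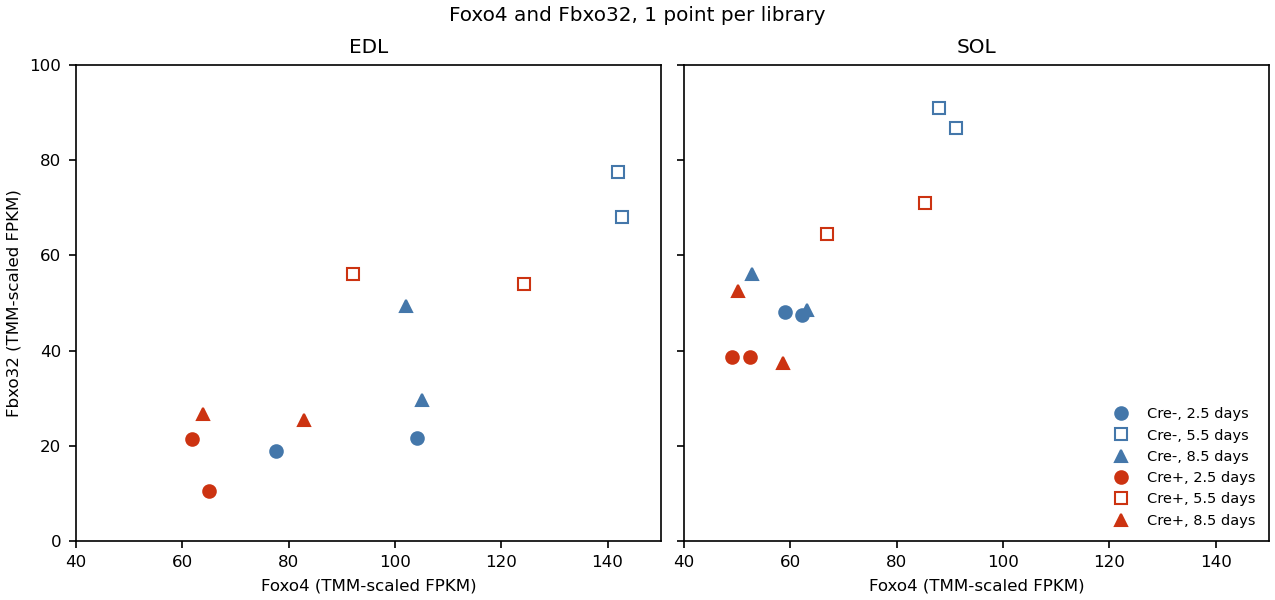
Fbxo32 (vertical axis) against Foxo4 (horizontal axis, starting at 40), both in TMM-scaled FPKM, 1 point per library, in EDL and SOL, with colour for genotype and symbol for day of Dox. The open squares of 5.5 days lie to the upper right in each muscle, and in SOL all 4 lie above the 8 other libraries on both axes.

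Across libraries, after the mean of each muscle was subtracted, Foxo4 and Fbxo32 had a Pearson r of 0.80 over 24 libraries and 0.50 over the 16 of 2.5 and 8.5 days. Foxo4 and Fbxo31 went from 0.67 to -0.30, and Fbxo31 and Fbxo32 from 0.56 to -0.48, when the 5.5-day libraries were left out. Fbxo30 and Fbxo31 were opposed in both sets, at -0.56 and -0.78. Over the 24 libraries their r was -0.28 in EDL and -0.78 in SOL. These values are descriptions. The libraries share scaling and time points, and those of a number may share mice, and the 8 libraries of 5.5 days form a cluster of their own.

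The genes whose levels followed each of the 8 most closely were found by the same centred correlation over 24 libraries, 12 per muscle, among 11322 genes. Foxo4 was followed by Setd3 (0.98), a histidine methyltransferase of actin, Stk11 (0.96), which encodes the kinase LKB1 upstream of AMPK, and Otud7b (0.95), a deubiquitinase. Fbxo32 was followed by Klhl38 (0.96), Vezf1 (0.93) and Ubl3 (0.90), and Fbxo31 by Nub1 (0.94), Mtmr14 (0.92) and Bsdc1 (0.90). Foxo1 was followed by 9930104L06Rik (0.91), Tle4 (0.89) and Il6ra (0.87). The shift of the 5.5-day libraries enters each of these values.

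For the rest the likeness was weaker. Fbxo30 was followed by Zfp449 (0.85), Klhl24 (0.85) and Fam91a1 (0.84), Fbxo21 by Parp1, Tfip11 and Zc3h18 (0.81 to 0.80), Trim63 by Acvr1, Nrbf2 and Arid1b (0.75 to 0.73), and Foxo3 by Dst, Dhx29 and Gatad2b (0.74 to 0.70).

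Around the 8 genes, 8 lists of the pathway held 113 tested genes. In EDL 11 were called higher and 21 lower at 2.5 days, where 13.8% of all genes were higher and 10.2% lower. At 8.5 days 4 were higher and 17 lower, where 7.63% of all genes were higher and 6.5% lower. The list counts that follow read against these shares. In SOL 0 were called at 2.5 days and 0 at 8.5 days, and over both days 2 were lower, Map1lc3a (-0.54, adjusted p = 0.033) and Tnfrsf12a (-1.22, adjusted p = 0.046), by edgeR. In EDL at 5.5 days 1 was lower, the stress-induced mTORC1 inhibitor Ddit4, at -1.64. With library size alone the calls of Sgk1 (-0.91), Trim72 (-0.20), Ddit4 (-0.65) and Ube2b (-0.31) at 2.5 days and of Fbxo40 (-0.50), Map1lc3a (-0.44), Ddit4 (-0.68) and Ube2b (-0.34) at 8.5 days were lost. The split by direction in EDL depended on the scaling, as it did for all genes, so each list is given beside the median of all genes, -0.05 at 2.5 days and -0.02 at 8.5 days.

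**Figure D5:**
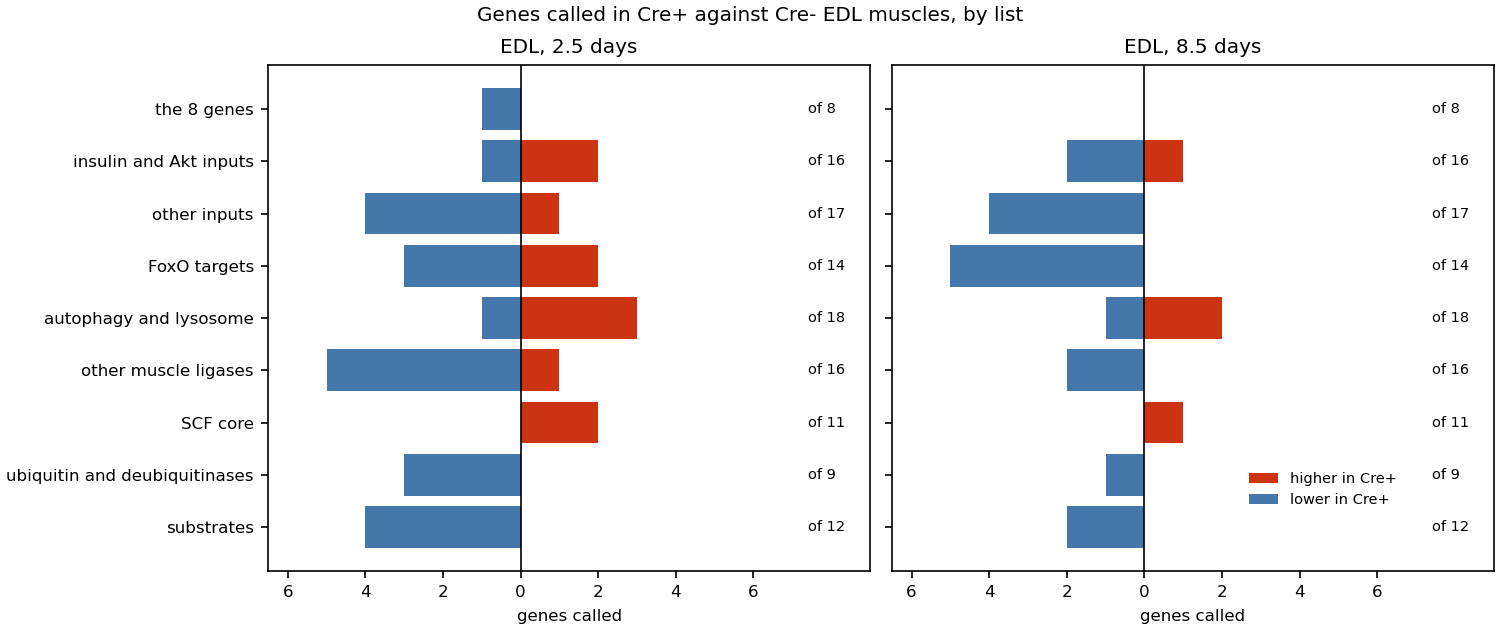
Number of genes called higher (red, to the right) or lower (blue, to the left) in Cre+ against Cre- EDL muscles at 2.5 and 8.5 days, by list, with the number tested at the right. Most bars point to lower with TMM scaling (21 lower and 11 higher over the 8 lists at 2.5 days), and with library size alone several lists turn to more higher calls, such as the FoxO targets at 2.5 days (3 higher and 1 lower).

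Upstream, on the insulin and Akt side, 2 of 16 genes were called higher and 1 lower at 2.5 days (median 0.17), and 1 higher and 2 lower at 8.5 days (median -0.03). Akt1, the kinase that restrains FoxO factors, was higher by 0.59 and 0.79 on the log2 scale. Sgk1, a related kinase induced by glucocorticoids, was lower, at -1.22 and -1.71. Akt1 lost its call at 2.5 days without Cre- replicate 1 (0.56) and without Cre+ replicate 2 (0.35). Sgk1 kept its call at 2.5 days in 1 of 4 settings that left out a library, lying at -0.64 without Cre+ replicate 2, -1.20 without Cre- replicate 1 and -1.23 without Cre- replicate 2. At 8.5 days it lost the call without Cre- replicate 1 (-1.55) and without Cre+ replicate 2 (-1.31). The abundant genes Akt2 and Prkaa2 were called on neither day.

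Of 17 genes of other inputs to the ligases, 1 was called higher and 4 lower at 2.5 days (median -0.36), and 0 higher and 4 lower at 8.5 days (median 0.17). Klf15, a glucocorticoid-induced factor that activates Trim63 and Fbxo32, was lower at -1.12 and -1.31, and Smad3, a mediator of myostatin and activin signals, at -0.93 and -0.83. These calls held in each of the 4 settings that left out a library on each day. Tnfrsf12a, the receptor of TWEAK, was lower at -1.5 and -1.52. It lost the call without Cre- replicate 1 (-1.31) or Cre+ replicate 2 (-1.23) at 2.5 days, and without Cre- replicate 1 (-1.39) or Cre+ replicate 1 (-1.19) at 8.5 days. Hdac5, abundant in this list, was called on neither day.

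Of 14 FoxO target genes other than ligases, 2 were called higher and 3 lower at 2.5 days (median -0.18), and 0 higher and 5 lower at 8.5 days (median -0.59). Ppargc1a, the coactivator of mitochondrial biogenesis, was lower on both days, at -0.98 and -1.07, with each library left out in turn. Ddit4 was lower at -0.98 and -0.88, and it was also called lower in EDL at 5.5 days, as given above. It lost the call without Cre- replicate 1 (-0.92) or Cre+ replicate 2 (-0.91) at 2.5 days, and without Cre+ replicate 2 (-0.57) or Cre- replicate 2 (-0.44) at 8.5 days.

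Of the 4 most abundant FoxO targets none was called lower. Pdk4, which blocks glucose oxidation in fasting, was 0.46 (adjusted p = 0.311) and 0.04, and Txnip was 0.07 and -0.55 (adjusted p = 0.529), by edgeR and none called. Pdk4 was called higher at 2.5 days without Cre+ replicate 1 (0.92). Cat, which encodes catalase, was higher at 2.5 days by 0.76 and was 0.44 at 8.5 days. Eif4ebp1, the translation repressor, was higher at 2.5 days by 0.79 and was 0.55 at 8.5 days. At 2.5 days Cat lost its call without Cre- replicate 1 (0.71) or Cre+ replicate 2 (0.46), and Eif4ebp1 without Cre+ replicate 2 (0.35) or Cre- replicate 2 (0.54).

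Of 18 autophagy and lysosome genes, 3 were called higher and 1 lower at 2.5 days (median 0.12), and 2 higher and 1 lower at 8.5 days (median 0.15). Map1lc3b, an LC3 gene of the autophagosome, was higher by 1.34 and 1.45, and Atg4b, the protease that trims LC3, by 1.28 and 1.06. Both held with each library left out. Map1lc3a, the other LC3 gene, was lower at -0.84 and -0.61, and at 8.5 days it lost the call without Cre- replicate 1 (-0.62), Cre+ replicate 1 (-0.42) or Cre- replicate 2 (-0.60). The LC3 genes thus differed in sign within the same libraries, and Lamp1 and Sqstm1 were called on neither day. The Map1lc3b change was larger in EDL than in SOL, by 1.30 at 2.5 days (adjusted p = 0.00258) and 1.17 at 8.5 days (adjusted p = 0.0142) in edgeR's interaction test.

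Of 16 other muscle ubiquitin ligases, 1 was called higher and 5 lower at 2.5 days (median -0.22), and 0 higher and 2 lower at 8.5 days (median -0.10). Fbxl22, an F-box protein of the sarcomeric Z-disc, was lower at -2.44 and -1.94, and Fbxo40, which targets IRS1, at -1.09 and -0.68. Fbxl22 was scarce, with a mean of 0.70 FPKM over the 16 libraries of 2.5 and 8.5 days, and lost the call at 8.5 days without Cre+ replicate 1 (-1.69). Fbxo40 lost it at 8.5 days without any 1 of the 4 libraries, with values of -0.65 and -0.71 without Cre- replicates 1 and 2 and of -0.73 and -0.63 without Cre+ replicates 1 and 2. Asb2, a SOCS-box ligase that targets filamin, was higher by 1.33 at 2.5 days and was 0.14 at 8.5 days. Trim72, a membrane-repair protein, was -0.52 at 2.5 days and 0.18 at 8.5 days, and its call at 2.5 days was lost without Cre- replicate 1 (-0.60), Cre+ replicate 2 (-0.38) or Cre- replicate 2 (-0.45). Trim54 and Nedd4 were called on neither day.

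Of 11 tested genes of the SCF core and its regulators, 2 were called higher and 0 lower at 2.5 days (median 0.26), and 1 higher and 0 lower at 8.5 days (median 0.08). Uba3, a subunit of the NEDD8-activating enzyme that switches cullins on, was higher by 0.95 and 0.91. Its call was lost without Cre+ replicate 2 at 2.5 days (0.58), and at 8.5 days without Cre+ replicate 1 (0.98), Cre+ replicate 2 (0.83) or Cre- replicate 2 (0.67). Skp1a, the adaptor that holds F-box proteins, was higher by 0.63 at 2.5 days, or 0.43 and not called without Cre+ replicate 2, and was 0.22 at 8.5 days. Nedd8, Cops5 and Ube2m were called on neither day.

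Of 9 ubiquitin and deubiquitinase genes, 3 were called lower at 2.5 days (median -0.31) and 1 at 8.5 days (median -0.15), and 0 higher. Ube2b, a ubiquitin-conjugating enzyme of muscle, was lower at -0.64 and -0.51. It lost the call at 2.5 days without Cre- replicate 1 (-0.57) or Cre+ replicate 2 (-0.56), and at 8.5 days without Cre- replicate 1 (-0.31) or Cre+ replicate 1 (-0.36). With library size alone this list held 2 higher and 0 lower calls at 2.5 days. The abundant ubiquitin genes Rps27a and Ubb were called on neither day.

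Of 12 substrates of Trim63 and Fbxo32, 4 were called lower at 2.5 days (median -0.72) and 2 at 8.5 days (median -0.28), and 0 higher. Tnni2, fast troponin I, was lower at -1.23 and -0.89, and Ckm, muscle creatine kinase, at -1.02 and -0.81. Ckm lost its call without Cre+ replicate 2 at 2.5 days (-0.86), and at 8.5 days without Cre+ replicate 1 (-0.74), Cre+ replicate 2 (-0.87) or Cre- replicate 2 (-0.59). Tnni2 lost it at 8.5 days without Cre- replicate 1 (-0.77) or Cre+ replicate 1 (-0.64). Mylpf and Myl1 were called on neither day. These values are RNA levels, and genes of this list such as Tnni2 and Mylpf also belong to the fast-fibre markers given above.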

How the data were processed

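RNA-seq libraries were made from polyA RNA (stranded, single-end). Per the study's methods, the authors used STAR v2.5.3a for alignment (build mm10) and HOMER to count uniquely aligned reads over RefSeq exons, and the submitters' notes name FastQC v0.11.2. The deposited values are raw counts per gene, with replicates kept apart and no normalization. Coordinates are those of GRCm38.

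Counts were analysed in R 4.3.3 with edgeR 4.0.16 (quasi-likelihood test, TMM, filterByExpr with a minimum count of 10, Benjamini-Hochberg adjustment), with 1 mean per group and no block. One fit held the 8 groups of 2.5 and 8.5 days (16 libraries, 15372 genes), and comparisons with 5.5 days used all 24 (15478 genes). With 2 libraries against 2, an exact permutation test cannot give a p under 0.333. Alternatives were DESeq2 1.42.0, other scalings, filters, thresholds and sets of libraries, blocks, and leaving out each library. The test was tried on simulated counts. The labels give no batch.

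Libraries of EDL and SOL with the same number deviated together (r 0.173 to 0.445 in 6 groups), although the labels do not state that they share a mouse, and Cre+ and Cre- libraries did not (-0.169 to 0.0578). FPKM used TMM-scaled library sizes from the fit of 24 libraries, and marker sums used total counts. The 8 genes and the lists were chosen with earlier results of these data known. The named genes were the 8 genes and, from each list, the 4 genes with the highest mean FPKM and those called in the same direction in EDL on both days where these were 5 or fewer, with the 3 genes most correlated with each of the 8. A gene that this rule names is not reported here. Of the 8 genes, 6 had a promoter in the RefSeq table (GRCm38.p6).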

Additional observations from a re-analysis of the deposited data

How the results depend on the processing

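Counts of the 8 genes called kept their value under most alternatives. In EDL at 2.5 days the count of 1 became 0 with DESeq2 on the 4 libraries and 2 with library size alone, and 0 to 1 with a library left out. The Foxo4 call behind this count was lost with DESeq2 on the 4 libraries and with library size alone. It held in 1 of 4 settings that left out a library. In EDL at 8.5 days the count of 0 became 0 to 1 with a library left out. Between the muscles the count of 2 in Cre+ mice became 4 with no limit on the fold change and 2 to 3 with a library left out, and that of 3 in Cre- mice became 3 to 4. Between 8.5 and 2.5 days in Cre- EDL the count of 0 became 1 with DESeq2 on the same libraries.

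Values that changed sign were called in neither setting. Fbxo30 in EDL at 2.5 days was 0.0066 and 0.028 with DESeq2 on the same and on the 4 libraries, 0.0038 with DESeq2 size factors and 0.32 with library size alone. Under library size alone Foxo1 in EDL at 8.5 days was 0.13, and between the muscles of Cre- mice Foxo3 was -0.071 and Fbxo31 -0.051. Foxo3 was -0.0028 there in the fit of 24 libraries. With a library left out, values in EDL at 2.5 days ranged from -0.015 to 0.37 for Foxo3, -0.96 to 0.084 for Fbxo32, -0.098 to 0.067 for Fbxo30, -0.020 to 0.17 for Fbxo21, -0.21 to 0.92 for Pdk4 and -0.43 to 0.82 for Txnip. At 8.5 days they ranged from -0.30 to 0.24 for Foxo1, -0.14 to 0.36 for Trim63, -0.78 to 0.017 for Fbxo30, -0.19 to 0.39 for Fbxo21, -0.28 to 0.30 for Pdk4 and -0.015 to 0.30 for Asb2. The Fbxo30 change at 8.5 minus 2.5 days ranged from -0.76 to 0.031, and Foxo3 in SOL at 2.5 days from -0.039 to 0.77. Between the muscles the ranges were -0.15 to 0.25 and -0.065 to 0.10 for Foxo3 and -0.19 to 0.059 and -0.022 to 0.14 for Trim63 in Cre- and Cre+ mice, and -0.045 to 0.14 for Fbxo31 in Cre- mice. The cause of these changes was not tested. Among values of the 8 genes not printed one by one, 107 changed sign and 0 of these were called.

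The replicate number as a block gave a count of 1 in EDL at 2.5 days and changed no count of the 8 genes, nor did a block for EDL and SOL libraries of the same number. Of the list genes, Eif4ebp1 at 2.5 days (adjusted p = 0.0622) and Ckm (adjusted p = 0.0529) and Ube2b (adjusted p = 0.0725) at 8.5 days lost their edgeR calls with it. DESeq2 on the 4 libraries lost Trim72 at 2.5 days (adjusted p = 0.0556) and Ube2b at 8.5 days (adjusted p = 0.142), the latter also lost with no filter (adjusted p = 0.0527), and the fit of 24 libraries lost Ddit4 at 8.5 days (adjusted p = 0.0601). The lowest count of the 8 genes was 299, and the number of libraries, 2 per group, limits the precision.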
